A study of Homo sapiens with 4 samples.

Results

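The regions examined were those assigned to cadherin and protocadherin genes in a profile of H3K27ac, an acetylation of histone H3 found at active promoters and enhancers. The members were all regions of the authors' deposited table whose assigned gene symbol begins with CDH and a digit or with PCDH. This rule found 805 distinct regions of 91107, assigned to 87 genes of 17301. Of the 89 protein-coding genes that RefSeq lists under such symbols, 86 were named, and PCDHB3, CDH16 and PCDH11Y were not. The remaining symbol, PCDH24, is an older name of CDHR2, a cadherin of the intestinal brush border that is no protocadherin by its current name. The rule used no measured value.

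The cells were A375, an established human melanoma line. Per the labels, 2 libraries came from vehicle-treated cells, which received isopropanol, and 2 from cells kept in 1 mM octanoate, a fatty acid of medium chain length. Both treatments lasted 48 hours, in serum-containing medium. The labels do not say that the libraries of a group came from separate cultures, so p-values measure only the spread between these libraries, which may be technical. The authors' deposited table holds 1 comparison. Each region has a mean level, a log2 fold change with its standard error, and p-values, but single libraries have no values there. Values by library, the depth and the overlap of the groups therefore could not be given, and each error below is the standard error (SE) of the authors' model. The header does not name the numerator of the fold change. A fold change is accordingly called positive or negative and not assigned to octanoate or vehicle.

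Of the melanocyte lineage markers, SOX10, PMEL and MITF each had a region at distance 0, whose mean levels in the authors' deposited table were 774, 269 and 98.4. MLANA, TYR and DCT had none at distance 0, and neither did the keratinocyte genes KRT5 and KRT14 or the leukocyte gene PTPRC, although a region assigned to PTPRC away from its start had a mean level of 408. Distance in that table runs from a region to a start of its assigned gene, and 0 was read as overlap with the start. Regions with a computed adjusted p-value, here called tested, numbered 36436, of which 281 were among the 805 member regions. Member regions without one had mean levels of at most 18.4. Most tested regions of the whole table were positive (87.3%), with a median log2 fold change of 0.32, a ratio of 1.25, so values are also given relative to that median.

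Cadherins are membrane proteins that bind cells to each other through calcium-dependent repeats outside the cell. Type I cadherins such as CDH1 (E-cadherin) and CDH2 (N-cadherin) and the related type II cadherins hold on to the actin cytoskeleton through catenins. Protocadherins lack the catenin-binding tail, and the genes of the alpha, beta and gamma clusters lie in a row, each with its own promoter, and give neurons a surface identity. In melanocytes CDH1 mediates contact with keratinocytes, and a change from CDH1 to CDH2 is a textbook feature of melanoma progression.

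Most variable promoters of the alpha, beta and gamma clusters are known to carry a conserved element with the letters CGCT. The stretches below show that element because some of these promoters lay under an H3K27ac region and some did not. They are RefSeq sequences of build GRCh38.p14, 34 bases each, 5′ to 3′ on the plus strand of chromosome 5, with CGCT in capitals. In each promoter the CGCT whose surroundings were most like those of the same family was chosen, so likeness within a family is partly set by that choice. PCDHA2, PCDHA6, PCDHA8 and PCDHA12 are alpha promoters under a region. PCDHA10 is the alpha promoter with no region over it, although the nearest region lay only 91 bases from its start.
PCDHA2: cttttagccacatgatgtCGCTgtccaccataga
PCDHA6: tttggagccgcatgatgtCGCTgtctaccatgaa
PCDHA8: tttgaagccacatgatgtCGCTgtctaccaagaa
PCDHA12: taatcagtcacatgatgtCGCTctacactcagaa
PCDHA10: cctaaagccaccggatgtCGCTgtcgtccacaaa
The alpha stretches lie at, for PCDHA2, chr5:140794779-140794812, for PCDHA6, chr5:140827895-140827928, and for PCDHA10, chr5:140855839-140855872. PCDHB2, PCDHB7, PCDHB8 and PCDHB16 are beta promoters under a region, and PCDHB4 is one without.
PCDHB2: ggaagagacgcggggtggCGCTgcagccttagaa
PCDHB7: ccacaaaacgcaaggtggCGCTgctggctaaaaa
PCDHB8: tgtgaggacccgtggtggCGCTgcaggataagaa
PCDHB16: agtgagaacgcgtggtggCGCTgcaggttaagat
PCDHB4: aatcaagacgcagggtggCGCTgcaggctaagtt
The PCDHB8 stretch lies at chr5:141177775-141177808 and that of PCDHB4 at chr5:141121721-141121754. PCDHGA1, PCDHGA7 and PCDHGA10 are gamma promoters under a region, while PCDHGA4, PCDHGA6 and PCDHGB4 have none.
PCDHGA1: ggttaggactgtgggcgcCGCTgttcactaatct
PCDHGA7: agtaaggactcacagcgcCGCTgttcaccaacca
PCDHGA10: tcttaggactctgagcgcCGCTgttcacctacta
PCDHGA4: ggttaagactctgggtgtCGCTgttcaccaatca
PCDHGA6: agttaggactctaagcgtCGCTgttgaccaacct
PCDHGB4: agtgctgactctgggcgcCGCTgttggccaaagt
The PCDHGA7 stretch lies at chr5:141382647-141382680 and that of PCDHGB4 at chr5:141387615-141387648.

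The CGCT stretch was found in 10 of 11 alpha promoters, 14 of 14 beta, 11 of 11 gamma A and 6 of 7 gamma B promoters given by RefSeq. CGCT itself lay at a median of 51.5, 61.5, 46 and 64.5 bases before the start, in that order. The median identity between 2 stretches of a family was 67.6% for alpha, 67.6% for beta, 73.5% for gamma A and 61.8% for gamma B. The lowest identity between 2 beta stretches was 32.4%, so a stretch chosen in this way need not be the element. Promoters with and without a region both held such a stretch, as the gamma lines show. The PCDHGB4 and PCDHGB5 stretches were identical, and the highest identity among beta stretches was 97.1%. How reads that fit several promoters were handled is not given in the sources used here, so levels at such pairs are uncertain.

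Beyond the clusters, 3 whole promoter windows are shown, of 300 bases each, from 250 bases before to 50 after the RefSeq start, with every CG in capitals. CDH2 and CDH19 were the cadherins with a start region of high level and an available window, and PCDHAC1 had the highest fold change among tested start regions. The CDH2 window is chr18:28177081-28177380 and that of CDH19 is chr18:66604041-66604340, both on the minus strand, while that of PCDHAC1 is chr5:140926049-140926348 on the plus strand.
CDH2: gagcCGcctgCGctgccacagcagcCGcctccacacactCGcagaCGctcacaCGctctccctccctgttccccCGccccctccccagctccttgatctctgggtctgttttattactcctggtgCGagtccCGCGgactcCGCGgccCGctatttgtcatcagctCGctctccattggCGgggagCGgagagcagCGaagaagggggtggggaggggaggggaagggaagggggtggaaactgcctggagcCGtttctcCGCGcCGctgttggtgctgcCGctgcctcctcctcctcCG
CDH19: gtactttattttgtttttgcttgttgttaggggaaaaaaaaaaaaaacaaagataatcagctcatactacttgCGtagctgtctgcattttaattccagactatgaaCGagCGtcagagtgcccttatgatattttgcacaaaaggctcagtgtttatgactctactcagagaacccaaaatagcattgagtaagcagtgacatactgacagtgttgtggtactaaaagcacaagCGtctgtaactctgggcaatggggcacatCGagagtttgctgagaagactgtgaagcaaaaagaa
PCDHAC1: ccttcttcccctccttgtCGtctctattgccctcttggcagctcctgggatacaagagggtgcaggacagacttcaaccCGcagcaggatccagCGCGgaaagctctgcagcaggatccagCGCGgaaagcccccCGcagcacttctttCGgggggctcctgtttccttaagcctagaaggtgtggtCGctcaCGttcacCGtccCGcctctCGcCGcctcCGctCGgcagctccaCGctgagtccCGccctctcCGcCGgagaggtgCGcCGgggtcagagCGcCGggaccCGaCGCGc
The CDH2 window held 23 CG and was 67.0% G or C, and the PCDHAC1 window held 27 CG at 66.0%. The CDH19 window held 5 CG at 39.3%, although the region over it had a higher mean level than the region over the CDH2 window, 182 against 115 in the authors' deposited table. Per kb of region these levels were 27.6 and 19.3.

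Across the family, 225 of 281 tested regions were positive in the authors' deposited table (80.1%), against 87.3% of all tested regions. The members' log2 fold changes had a median of 0.30, and single tested regions ran from -0.63 to 1.53. Relative to the median of all tested regions the sign of that median turned, to -0.03, and 130 of 281 lay above 0 (46.3%). Regions share genes and libraries and are not replicates, so the difference between these shares was not tested. The quartiles of the members were 0.09 and 0.48, and those of all tested regions 0.15 and 0.50.

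Of the 281 tested member regions, 3 had a deposited adjusted p-value under 0.05, which is 1.07% against 1.67% of all tested regions. They were assigned to CDH23, CDH13 and CDH5, and all were positive. At a deposited unadjusted p under 0.05, 34 member regions were positive (12.1%), against 17.9% of all tested regions, and 0 were negative, against 0.475%. After the median of all tested regions was subtracted, 1 member region, that of CDH23, kept an adjusted p under 0.05, against 0.124% of all. At an unadjusted p under 0.05 after subtraction there were 17 (6.05%), against 5.73%, so the members' share was near that of the whole table. The median SE was 0.33 for members and 0.29 for all, at median mean levels of 34.0 and 47.9.

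**Figure D1:**
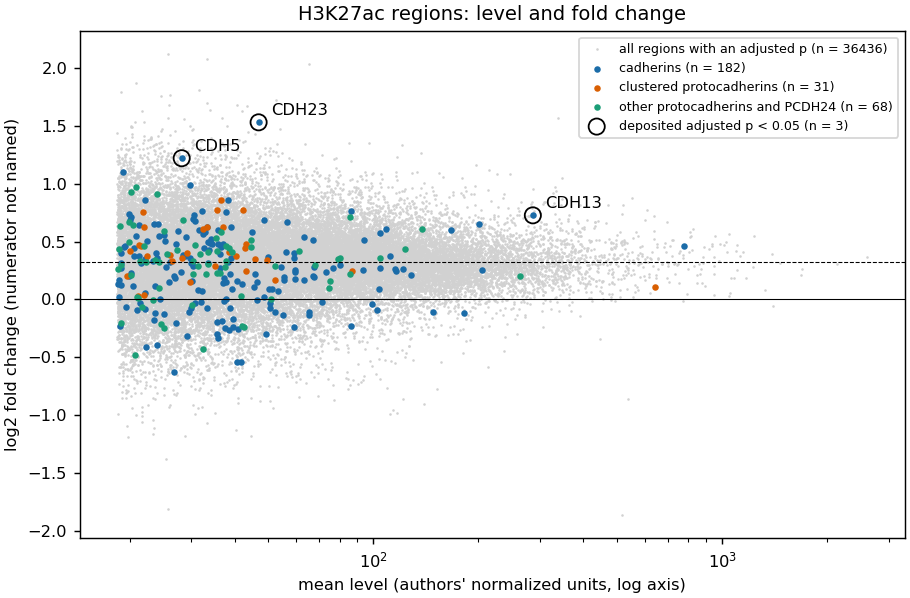
Mean level of each tested region (log axis, the authors' normalized units) against its log2 fold change, with all 36436 tested regions in grey, members in colour by class and the 3 called members circled. The dashed line marks the median of all tested regions, 0.32, and the members spread around it at every level up to 775.

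The gap in the share of positive regions was seen at mean levels of 30 and above. Under 30, 81.5% of 108 member regions were positive in the authors' deposited table, against 80.7% of all. Between 30 and 100 the shares were 78.1% of 151 members and 87.5% of all, and at 100 or more they were 86.4% of 22 members and 95.3% of all. These gaps have no test, because the table gives no value per library.

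Many member regions lay far from the gene they were assigned to in the authors' deposited table. The median distance from a member region to its gene was 324 kb, against 37.6 kb for all regions. Only 44 member regions lay at distance 0 (5.47% against 11.7%), and 230 lay within 100 kb (28.6% against 71.1%). Beyond 500 kb lay 303 (37.6% against 5.59%), and beyond 1000 kb lay 143 (17.8% against 1.87%). Assignment was to a named gene at any distance, so a region this far may act on another gene, which was not tested. Member regions had a median width of 850 bases, against 908 for all, and a median mean level of 11.2, against 12.3.

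Regions at starts and near them were more often positive than those farther away. Of 37 tested regions at starts, 35 were positive (94.6%) with a median of 0.36, against 98.1% and 0.35 for all tested regions at distance 0 in the authors' deposited table. Here a start is one at distance 0 or overlapped by the region in its RefSeq window. Away from starts but within 100 kb, 57 of 64 were positive (89.1%) with a median of 0.35, against 85.2% and 0.32 for all regions that near but not at distance 0. From 100 to 500 kb, 62 of 90 were positive (68.9%) with a median of 0.20, against 78.6% and 0.26 for all regions at that distance. Beyond 500 kb, 71 of 90 were positive (78.9%) with a median of 0.28, against 80.3% and 0.27. The share from 100 to 500 kb was thus below that of all regions at the same distance, while beyond 500 kb the shares were close.

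Of the 3 called regions, that of CDH23 had the highest fold change. CDH23 encodes a long atypical cadherin of the tip links of inner ear hair cells. In the authors' deposited table its called region, chr10:71612130-71615608 (hg38), had a mean level of 46.9 and a log2 fold change of 1.53 ± 0.29 (SE), a ratio of 2.89, with an adjusted p of 0.000241. Its value relative to the median of all tested regions was 1.21, with an adjusted p of 0.0310. It lay within the gene as RefSeq bounds it, 215 kb from the start used. The next tested region of the gene toward higher coordinates, at 224 kb, had 0.98 ± 0.34 with an adjusted p of 0.103, and the one at 251 kb had 0.74 ± 0.40.

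The 7 tested regions of CDH23 were all positive, with a median of 0.74, the highest of the 22 genes or clusters with at least 5 tested regions. The other 4 lay between 316 and 376 kb from the start and had 0.19, 0.38, 0.16 and 0.77. The region with the highest level of the gene, at 368 kb, had a mean level of 111 and 0.38 ± 0.23. Relative to the median of all tested regions, 2 of the 7 were negative, those at 0.19 and 0.16. The table also lists 3 member regions for VSIR, all 3 tested, and 3 for C10orf105, of which 1 was tested. Both genes lie within the span of CDH23, so the median of 0.74 is not that of CDH23 alone. Nearest to the CDH23 start, a region lay 6.03 kb away, and none overlapped the start.

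CDH13 encodes T-cadherin, which lacks a cytoplasmic tail and is held to the membrane by a lipid anchor. All 45 of its regions lay within the gene, and its start carried the member region with the highest mean level, 775 over 19.8 kb (39.2 per kb), at chr16:82626043-82645799. That start region had 0.46 ± 0.21 and an adjusted p of 0.222 in the authors' deposited table. The called region, chr16:82691662-82704737, was 13.1 kb wide and lay 64.7 kb from the start. Its mean level was 286 and its log2 fold change 0.73 ± 0.19, a ratio of 1.65, with an adjusted p of 0.0233. Relative to the median of all tested regions it was 0.40, with an adjusted p of 0.800.

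Along CDH13 the tested regions near the start were higher in fold change than those near the end. The tested regions at 22.8, 32.0 and 41.7 kb, between the start and the called region, had 0.65 ± 0.23, 0.49 ± 0.32 and 0.58 ± 0.23. From 180 to 716 kb there were 7 tested regions with values from 0.26 to 0.68. The last 4, at 885, 1090, 1117 and 1134 kb, had -0.01, -0.03, -0.20 and -0.26, with SEs from 0.29 to 0.33. In all 12 of 16 tested regions were positive, and 6 had an unadjusted p under 0.05, against 17.9% of all tested regions. Relative to the median of all tested regions the values at 0.32 and 0.26 were negative too. Once that median was subtracted, only the called region kept an unadjusted p under 0.05, at 0.0374.

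CDH5 encodes VE-cadherin, the cadherin of endothelial junctions. Its called region, chr16:66080973-66083669, lay 312 kb from the gene, with a mean level of 28.2 and a log2 fold change of 1.22 ± 0.34 in the authors' deposited table, a ratio of 2.33, with an adjusted p of 0.0341. Relative to the median of all tested regions it was 0.90, with an adjusted p of 0.510. The other 10 tested regions of CDH5 ran from -0.54 to 0.41, and the median over all 11 was 0.02, the lowest of the 22 genes or clusters. At 204 and 164 kb, the regions chr16:66188530-66191165 and chr16:66227784-66231162 had -0.54 ± 0.32 and -0.54 ± 0.29, with adjusted p of 0.333 and 0.296. The CDH5 region of highest level, chr16:66245614-66252846, had a mean level of 148 (20.5 per kb) and -0.11 ± 0.21. The nearest regions on either side of the called one, at 374 and 288 kb, were too low for an adjusted p and had 1.08 ± 0.70 and 0.58 ± 0.60. No region overlapped the CDH5 start.

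**Figure D2:**
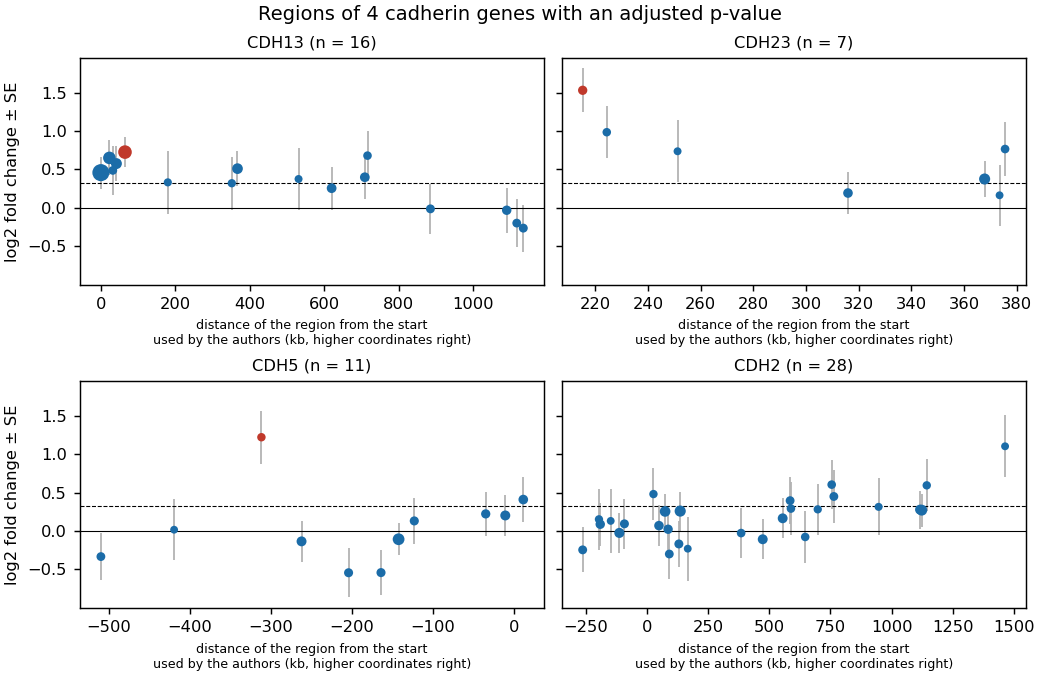
Log2 fold change with its SE for each tested region of CDH13, CDH23, CDH5 and CDH2 against its distance from the start used by the authors (kb), with points larger at higher mean level and called regions in red. CDH13 values run from 0.46 at the start to -0.26 at 1134 kb, and the called CDH5 region at 1.22 lies above the other tested regions of that gene.

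Among type I cadherins 30 of 40 tested regions were positive in the authors' deposited table, with a median of 0.25. Calls numbered 0, against 1.67% of all tested regions. CDH1 had 15 regions, all within 100 kb, and none over its start. The nearest lay 2.83 kb away at a mean level of 9.91, without an adjusted p. Tested regions at 4.32 and 4.23 kb, on either side of the start, had mean levels of 28.4 and 32.7 and log2 fold changes of 0.38 ± 0.37 and 0.45 ± 0.33. The lowest fold change among tested regions of the family was at CDH1, in chr16:68786281-68788371 within the gene, at -0.63 ± 0.36 (mean level 26.9, adjusted p 0.320). A neighbour within the gene, at 52.3 kb, had -0.24 ± 0.28. The other 5 tested regions of CDH1 were positive.

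CDH3 encodes P-cadherin and lies beside CDH1. Its 4 tested regions were all positive, and 3 had an unadjusted p under 0.05, against 17.9% of all tested regions. After the median of all tested regions was subtracted, these 3 had unadjusted p of 0.342, 0.215 and 0.213. The region with the highest level in the authors' deposited table, chr16:68663394-68670856, had a mean level of 167 (22.4 per kb) and 0.60 ± 0.22, with an adjusted p of 0.132. The others had 0.68 ± 0.29 at 2.81 kb, 0.62 ± 0.32 at 6.63 kb and 0.24 ± 0.24 at 11.3 kb. Relative to the median of all tested regions, the last of these was negative. A region at 17 bases from the start had a mean level of 14.7, too low for an adjusted p.

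CDH2 had 54 regions, of which 28 were tested, more than any other gene of the family. Of these 20 were positive, with a median of 0.16 in the authors' deposited table. The region over its RefSeq start, chr18:28172687-28178631, covers the CDH2 sequence printed above and had a mean level of 115 and 0.26 ± 0.25, with an adjusted p of 0.531. The table gives this region a distance of 136 kb, so the start the authors used for CDH2 was another one. Within the gene a region of mean level 93.2 had 0.25 ± 0.22 and one of 35.6 had -0.30 ± 0.32. The highest value among tested CDH2 regions, 1.10 ± 0.40, came from a region 1464 kb away at a mean level of 19.1, with an adjusted p of 0.124. Of the remaining type I genes, CDH4 had 1 tested region at 0.13 ± 0.41, and CDH15, the muscle cadherin, had 3 regions and 0 tested.

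Type II cadherins held 342 of the 805 regions. Of 109 tested, 80 were positive (73.4%), with a median of 0.22. The CDH5 region was the 1 called (0.917%, against 1.67% of all tested regions). CDH19 is a marker of Schwann cell precursors and related neural crest cells. Its start region, chr18:66598496-66605087, covers the CDH19 window printed above and had -0.12 ± 0.20 in the authors' deposited table, the lowest fold change among the tested start regions (adjusted p 0.720). All 9 tested regions of CDH19 lay between -0.12 and 0.19 (median 0.07), so each of them was negative relative to the median of all tested regions. CDH11, a mesenchymal cadherin, had 0.58 ± 0.30 at its start and from -0.32 to 0.36 in the 5 tested regions between 269 and 449 kb away. Its other tested regions, at 705 and 1504 kb, had 0.40 ± 0.41 and 0.65 ± 0.36. The CDH8 region of highest level had a mean level of 128 (15.6 per kb) and 0.21 ± 0.22.

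On the short arm of chromosome 5, CDH6, CDH9, CDH10, CDH12 and CDH18 stand in a gene-poor stretch and had from 25 to 56 regions each. CDH9 had 50 regions, 32 of them beyond 500 kb. Its start region had a mean level of 6.0 in the authors' deposited table, while a region 1767 kb away, chr5:28805843-28812833, had 205 (29.3 per kb) and 0.25 ± 0.21. All 16 tested regions of CDH18 were at or above 0, from 0.00 to 0.86. CDH6, a cadherin of the kidney and neural crest, had 3 tested regions, all negative, at -0.30, -0.09 and -0.03. Its start region at a mean level of 12.2 had 0.87 ± 0.55 and no adjusted p. Over all 25 regions of CDH6, tested or not, 19 were positive, and 19 lay beyond 500 kb. CDH10 and CDH12 had medians of 0.22 and 0.26 over their tested regions. The regions of highest level had 121 (30.9 per kb) and 0.26 ± 0.22 for CDH12 and 104 (23.3 per kb) and 0.09 ± 0.24 for CDH18. For each of these 5 genes the start region was lower in level than the gene's highest region.

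**Figure D3:**
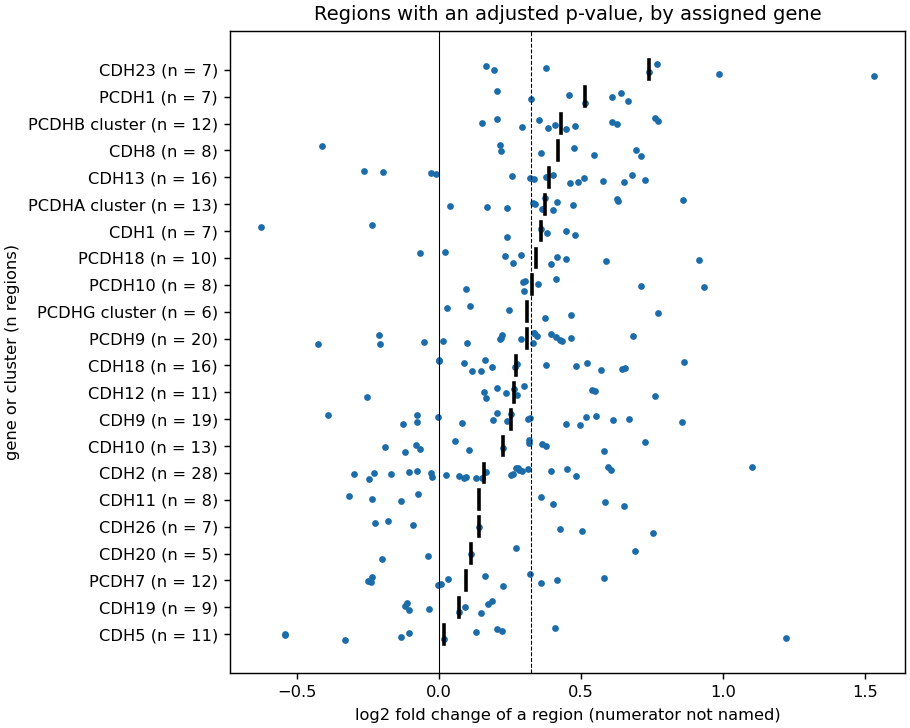
Log2 fold change of each tested region (points) for the 22 genes or protocadherin clusters with at least 5 tested regions, with the median as a bar. Medians run from 0.02 for CDH5 to 0.74 for CDH23, and the dashed line marks the median of all tested regions, 0.32.

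The clustered protocadherins of chromosome 5 held 53 regions, 31 of them tested. All 31 were positive in the authors' deposited table, from 0.03 to 0.86 with a median of 0.38. Calls numbered 0, against 1.67% of all tested regions. Of the 31, 4 had an unadjusted p under 0.05 (12.9%, against 17.9% of all tested regions). Relative to the median of all tested regions 22 were positive, and after it was subtracted 0 had an unadjusted p under 0.05, against 5.73% of all. Of the whole table's tested regions at distance 0, 98.1% were positive, so a lack of negative values is common at starts. Alpha genes share their last exons with each other, as do gamma genes, and many of these regions are listed for several genes, up to 22 for 1 region.

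A region overlapped the promoter window of 12 of 13 alpha genes and 12 of 14 beta genes with a RefSeq window, but only 5 of 20 gamma genes. Among all protein-coding genes with a window the share was 69.1%. At alpha starts, tested regions ran in mean level from 20.0 at PCDHA12 to 52.1 at PCDHA6 in the authors' deposited table. The log2 fold changes of these tested regions ran from 0.04 ± 0.40 at PCDHA7 to 0.86 ± 0.34 at PCDHAC1, whose adjusted p was 0.159. PCDHAC1 and PCDHAC2 (0.63 ± 0.37) are the alpha genes next to the last shared exons and, with PCDHA13 at 0.63 ± 0.40, had the 3 highest values of the tested alpha starts. PCDHA1, the first of the row, had a mean level of 8.27 and no adjusted p.

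At tested beta starts, the highest fold changes were 0.77 ± 0.33 at PCDHB8 and 0.76 ± 0.41 at PCDHB11, with adjusted p of 0.197 and 0.298. PCDHB6 had 0.62 ± 0.32 and PCDHB7 had 0.61 ± 0.35. PCDHB2, PCDHB5 and PCDHB16 had 0.48, 0.41 and 0.35, and PCDHB9 had 0.20. Mean levels at the tested beta starts ran from 19.6 to 45.7 in the authors' deposited table. The last genes of the row, PCDHB12 to PCDHB15, had mean levels from 8.50 to 14.3 and no adjusted p, and PCDHB14 among them was negative at -0.18 ± 0.48.

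At gamma starts, PCDHGA7 had 0.77 ± 0.33 at a mean level of 35.7, with an adjusted p of 0.193, and PCDHGA1 had 0.46 ± 0.39 at 21.6. PCDHGA10 and PCDHGB1 carried regions of 10.6 and 9.79, without an adjusted p. PCDHGC3, a gene of the last, constitutive group, had the highest level at a gamma start, 86.9 (27.6 per kb), and 0.25 ± 0.27. Downstream lay a region 19.8 kb wide, chr5:141506674-141526450, which the authors' deposited table lists for 22 gamma genes and also for the neighbour DIAPH1. It had a mean level of 640 (32.4 per kb) and 0.11 ± 0.21, negative relative to the median of all tested regions. Thus the region with the highest mean level in the locus was not at a promoter of a variable gene. Per kb, however, the PCDHB5 start region was higher, at 36.4 over 1.06 kb.

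**Figure D4:**
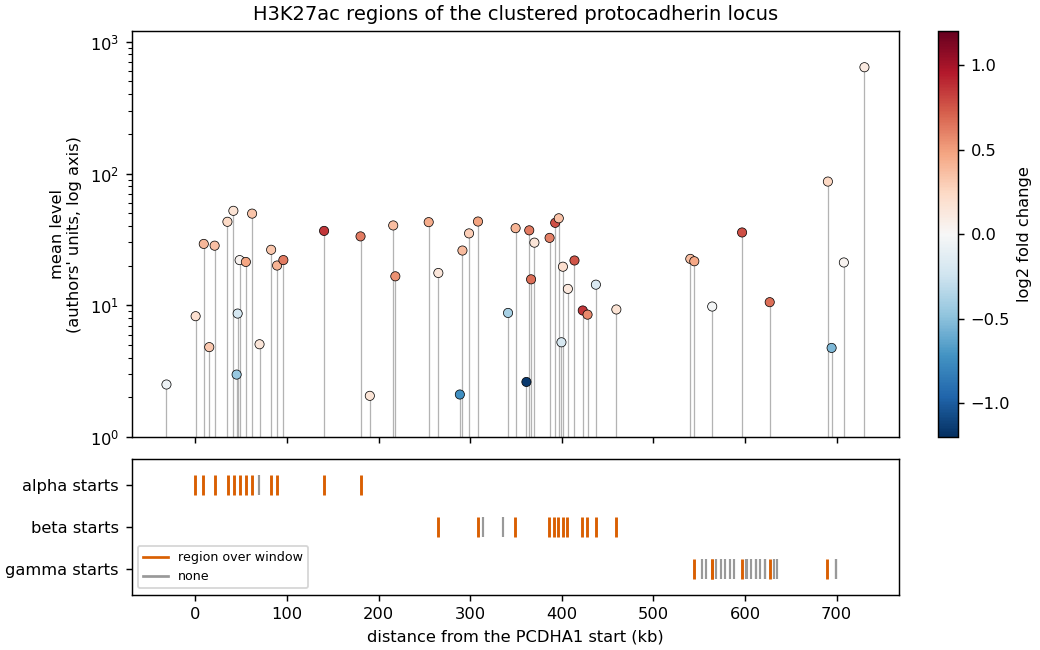
Mean level (log axis) of the 53 H3K27ac regions of the clustered protocadherin locus by distance from the PCDHA1 start (kb), coloured by log2 fold change, above the alpha, beta and gamma starts with a RefSeq window. Starts under a region (orange) fill the alpha and beta rows, while 15 of 20 gamma genes have none (grey), and the region of level 640 lies past the last gamma start.

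By median, the promoter windows of the clustered genes were lower in G and C than those of all protein-coding genes. Single windows reached 66.0% in the alpha cluster and 65.0% in the gamma cluster. A RefSeq window was found for 68 of the 87 members and for 70 of the genes under the symbol rule. In windows under a region, the median number of CG was 7.5 for members and 26 for protein-coding genes. The median G and C content was 37.3% for alpha, 40.8% for beta and 47.3% for gamma windows, against 62.3% for protein-coding genes and 58.7% for all windows. Outside the clusters it was 57.5% for delta protocadherins, 59.7% for type I, 48.5% for type II and 59% for other cadherins. CGCT, read on both strands, was in 81 of 90 member windows (90.0%), in 79.7% of protein-coding windows and in 70.0% of all windows. It is short enough to recur without being the element. CAGGTG, the E-box read by repressors of CDH1, was in 9 member windows (10.0%), 19.9% of protein-coding windows and 20.6% of all windows. The window of CDH1 was not used here. TATAAA was in 13 member windows (14.4%), 9.47% of protein-coding windows and 11.5% of all windows. A match is a run of letters in a window and not a bound site, and none of these motifs contains another.

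Delta protocadherins, the non-clustered group known from the nervous system, held 205 regions. Of 62 tested, 53 were positive in the authors' deposited table, with a median of 0.32. Calls numbered 0, against 1.67% of all tested regions. Relative to the median of all tested regions 30 were positive. PCDH1 is expressed in epithelia, and its start region had a mean level of 264 (27.8 per kb) and 0.20 ± 0.23. All 7 tested PCDH1 regions were positive with a median of 0.51, and the one with the next highest level, 138 (36.5 per kb) at 27.1 kb, had 0.61 ± 0.24 with an adjusted p of 0.164. PCDH10 had 0.71 ± 0.26 at its start (mean level 85.6, adjusted p 0.134), and all 8 of its tested regions were positive. PCDH7 had 0.36 ± 0.26 at its start and a median of 0.10 over 12 tested regions.

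PCDH9 had 65 regions, the largest number in the family, and 45 of them lay beyond 500 kb. Its start had a mean level of 85.6 and 0.22 ± 0.26 in the authors' deposited table. The lowest value among its 20 tested regions was -0.43 ± 0.31, in chr13:64721991-64725014, a region 2505 kb away. PCDH17 and PCDH18 had 0.28 ± 0.34 and 0.29 ± 0.28 at their starts. PCDH8 and PCDH11X had 0 tested regions, and PCDH19 had 1 region, 1037 kb away. Among the other protocadherins, PCDH12 had 0.63 ± 0.41 at its start, and PCDH20 had 1 tested region, at -0.48 ± 0.40. PCDH24, by its older symbol, had 0.36 ± 0.25 at its start and 0.98 ± 0.38 at 12.7 kb.

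Over all classes, 51 of the 87 genes had a region at a start and 36 had none. Genes without one included CDH1, CDH5, CDH8, CDH17, CDH23 and CDH26. For CDH20 and CDH24 the nearest region lay 99 and 337 bases from the start. The 19 members without a RefSeq window could count only at distance 0, so the split depends partly on which genes have a window. CDH3, with a region at 17 bases and no window, counts as having none, while PCDHA1, at 26 bases, counts through its window. Among tested start regions the levels per region ran from 18.8 at PCDH12 to 775 at CDH13, and the fold changes from -0.12 at CDH19 to 0.86 at PCDHAC1 in the authors' deposited table. CDH10 was the only other negative one, at -0.07 ± 0.41. Of the 37, 24 exceeded the median over the whole table (64.9%, against 56.2% of all tested regions at distance 0). An unadjusted p under 0.05 was given for 6 (16.2%, against 19.2%), those of CDH13, PCDH10, PCDHAC1, PCDHB6, PCDHB8 and PCDHGA7. With that median subtracted, 1 of the 37 had an unadjusted p under 0.05 (2.70%, against 1.66%), the negative region of CDH19.

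**Figure D5:**
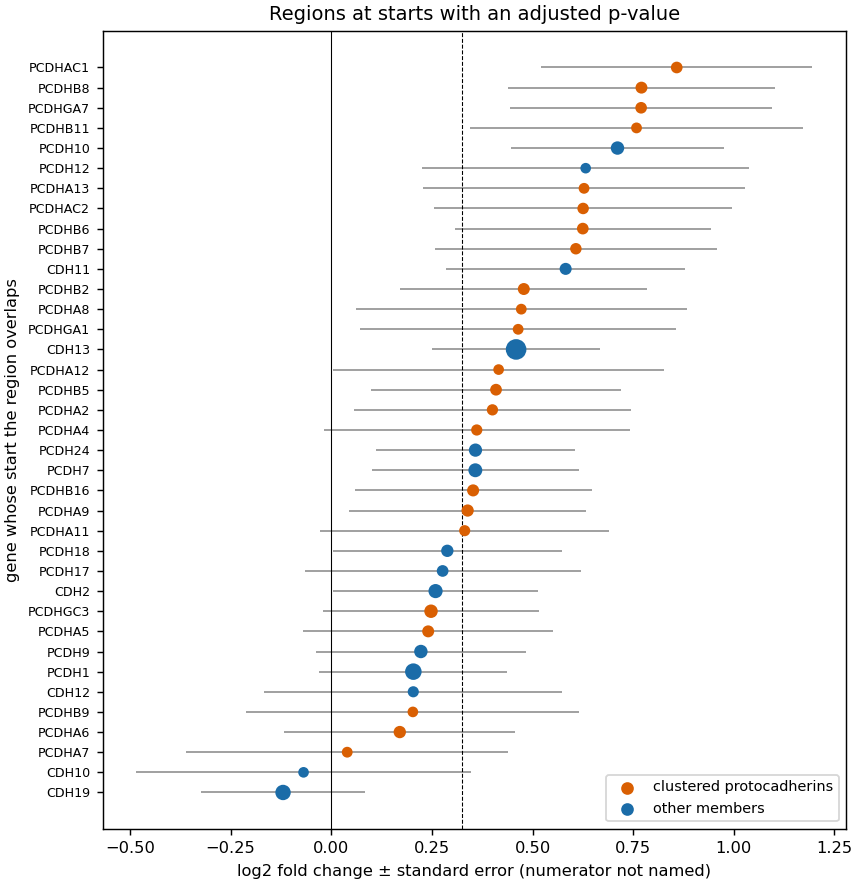
Log2 fold change with its SE for the 37 tested regions at starts, in order, with clustered protocadherins in orange, other members in blue and points larger at higher mean level. Only CDH19 (-0.12) and CDH10 (-0.07) lie below 0, and PCDHAC1 (0.86) lies highest.

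Genes that work with cadherins were described from a list of 39 catenins, plakophilins, desmosomal cadherins, large cadherins of the FAT, DCHS and CELSR groups and related genes. Of these, 37 with regions in the authors' deposited table were used, AFDN under its older symbol MLLT4. CDHR2 was left out here, because its regions are among the members under its older symbol PCDH24. They held 279 regions, of which 86 were tested and 73 were positive (84.9%), with a median of 0.32. By the deposited DESeq2 comparison 0 were called, against 1.67% of all tested regions. At an unadjusted p under 0.05, 14 were positive (16.3%, against 17.9%) and 0 were negative (against 0.475%). After the median of all tested regions was subtracted, 0 were called (against 0.124%) and 7 had an unadjusted p under 0.05 (8.14%, against 5.73%).

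Among tested start regions of the list, the desmosomal cadherin DSC2 had the highest value, 0.97 ± 0.33 at a mean level of 36.1, with an adjusted p of 0.100, and DSC3 had 0.71 ± 0.31. AFDN, which links nectins to actin, had 0.89 ± 0.37 at its start, and the plakophilin PKP3 had 0.57 ± 0.24 at a mean level of 131. FAT1, a giant cadherin, had the start region of highest level among those of the list, 188, and 0.33 ± 0.23 in the authors' deposited table. DSG2 had 0.24 ± 0.31 and PKP2 had 0.10 ± 0.24 at the start, both negative relative to the median of all tested regions. For CTNNB1 (beta-catenin) and CTNNA1 (alpha-catenin) no region lay at distance 0, and their regions of highest level had 0.50 ± 0.21 and 0.50 ± 0.24. Starts of this list were taken at distance 0 only, without RefSeq windows. A region over a promoter can therefore be missed, as distance alone would have missed that of CDH2.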

How the data were processed

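H3K27ac was measured by chromatin immunoprecipitation and sequencing in 4 libraries of A375 cells. The submitters' processing notes name Trim Galore, cutadapt, FastQC, Bowtie2, Picard, MACS2, featureCounts, DESeq2 and bedtools 2.29.1 and the build hg38, without roles or order. The deposited table gives a mean level per region, a signal normalized by the authors, whose scaling is not named. Per the file headers, the authors computed each log2 fold change and standard error, without naming the numerator. The score the authors deposited per region, their test statistic, entered no result here. The p-value and adjusted p-value of each region are the authors' DESeq2 values per the file headers. Benjamini-Hochberg adjustment over the 36436 regions with a value under 1 gave the deposited adjusted values back to within 1.58e-14, so a value of 1 was read as not computed.

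Lines repeating a region for another gene were merged (1052 member lines, 805 regions). A test across libraries with edgeR had been planned and could not be run, for want of values by library, so the authors' comparison was described. Depth is unknown, and 0 columns of single libraries were left out. For centring, the median of all tested regions was subtracted, p taken from the authors' standard error by the normal distribution, and adjusted over the same regions. The procedure was tested on simulated data. Coordinates are as the authors' files give them. Promoter windows are RefSeq sequences of GRCh38.p14, matched by symbol, and exon annotation was not used here.

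The rule for names was all called member regions, the 10 highest in level, the 5 highest and 5 lowest fold changes among tested regions, regions at starts, each gene's region of highest level, and members describing a class. Of the start regions and of each gene's highest region, part is given as ranges. The remaining regions along the loci of called genes, of CDH1 and of CDH3 describe their class. The members and lists were chosen with earlier results of these data known. Python 3.11.15, pandas 2.3.3, scipy 1.17.1 and matplotlib 3.10.9 were used. Alternatives were another threshold, a minimum fold change, adjustment over all regions, centring, lines in place of regions, filters on level, 1 region per gene, a limit on distance and the leaving out of groups of genes.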

Additional observations from a re-analysis of the deposited data

How the results depend on the processing

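The 3 member calls became 1 at an adjusted p under 0.01, 1 with adjustment over all distinct regions, 1 after centring and 1 within 100 kb of the named gene. The CDH13 and CDH5 regions had adjusted p of 0.0576 and 0.0840 over all distinct regions, and CDH23 had 0.000602. Calls of size 1 or more on the log2 scale numbered 2, and lines in place of regions gave 3. The partner list had 0 calls under each of its 6 alternatives. The share of positive member regions, 80.1%, was 72.0% over all 805 regions, 86.4% at mean levels from 100 up, 84.8% with 1 region per gene (46 regions), 91% within 100 kb and 46.3% after centring. The median of 0.30 was 0.36 with 1 region per gene, 0.36 within 100 kb and -0.026 after centring. Centring subtracts 0.32 by construction, and for the other settings the cause was not tested. At mean levels from 10 up, without the clustered protocadherins and without PCDH24 (chosen after seeing the data), the share was 77.8%, 77.6% and 79.9%. No paired analysis was possible because single libraries have no values in the authors' file. The planned edgeR and DESeq2 fits, other size factors and the leaving out of each library were not run for that reason. Precision is limited at low levels, since 281 of 805 member regions have an adjusted p-value.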

Other observations

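In the authors' deposited table, 524 member regions carry no adjusted p, and 355 of them were positive. Log2 fold changes of 1 or more in size were positive in 43 of them and negative in 18. An unadjusted p under 0.05 was given for 16, split into 14 positive and 2 negative values. The same counts over all regions without an adjusted p were not made, so nothing particular to the members can be read from these. The examples that follow were chosen after their values were seen. CDH13 had 1.79 ± 0.56 in a region within the gene at a mean level of 9.54, and PCDH8 had 1.28 ± 0.52 at 14.4. Of the 2 negative ones, CDH5 had -1.06 ± 0.46 at a mean level of 13.8 and CDH18 had -0.95 ± 0.48 at 11.7. Start regions without an adjusted p reached 1.14 ± 0.60 at CDH12, 0.87 ± 0.55 at CDH6 and 0.86 ± 0.61 at PCDHB12.

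PCDH9, PCDH7 and CDH9 had regions assigned from farthest away, at up to 2758, 2749 and 2075 kb. Of the member regions, 14 are also listed for genes outside the family, among them VSIR, C10orf105 and DIAPH1, so those fold changes are not those of a cadherin or protocadherin gene alone.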
